A study of Mus musculus with 6 samples.

Results

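The genes described here are the oxygen-sensing core of the hypoxia-inducible factor (HIF) pathway: the prolyl hydroxylases Egln1, Egln2 and Egln3, the asparaginyl hydroxylase Hif1an, the ubiquitin ligase component Vhl, the alpha subunits Hif1a, Epas1 and Hif3a, and the beta subunits Arnt and Arnt2. They were chosen by name, with earlier results of these data known, as 10 of the 19937 mouse genes measured. Each has 1 probe set that the platform's annotation gives to that gene alone. The RNA came from mouse pheochromocytoma (PHEO) lines and was read on Affymetrix Mouse Gene 1.0 ST arrays, 3 for the MPC line and 3 for the MTT line. MPC cells derive, by the methods, from NF1 knock-out mice and are a well-differentiated, slow-growing model, and MTT cells were established from liver metastases of MPC cells and grow fast, so MTT cells carry the MPC background too. All samples were untreated, the labels give neither the age of the mice nor the oxygen level of the cultures, and each group is a single line, so a difference between the groups is one between these lines. Whether the MPC samples were cultured apart is not stated, and the p-values then reflect only how far these samples differ among themselves, which may be technical. The growth and tissue fields of the labels read alike on all arrays, and the line was taken from sample title and cell type.

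With oxygen present, the prolyl hydroxylases mark HIF alpha subunits, VHL binds the marked protein and it is degraded. When oxygen, iron or 2-oxoglutarate is short, the alpha subunit persists, pairs with ARNT or ARNT2 and switches on genes of glucose uptake, glycolysis, vessel growth and cell survival, and Egln1 and Egln3 are themselves among the genes that HIF induces. The pathway is a classic one in PHEO, since human inherited or acquired mutations of VHL, EPAS1 and EGLN1, and of the succinate dehydrogenase genes whose substrate inhibits the hydroxylases, give rise to these tumours. Most of this control acts on protein stability, which an RNA array does not measure.

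The values are log2 signals after the RMA method, so 1 unit is a 2-fold difference. Because each probe set has its own background, levels of different genes are set only against the median gene, which is a rough guide. The median log2 signal over all probe sets was 7.73 to 7.77 on the 6 arrays, and that over gene means was 8.28. The labelled cell type was checked on its markers. Of 13 measured chromaffin markers 12 were above the median gene, including Th, which encodes tyrosine hydroxylase and read 13.46 in MTT and 13.49 in MPC cells, and Pnmt was below it. Of markers of other cells, 0 of 7 endothelial, 2 of 7 fibroblast, 0 of 6 macrophage and leukocyte, 0 of 5 hepatocyte and 0 of 5 adrenal cortex genes were above it, and limma called none of these genes, of which 1, an endothelial one that was lower, had an unadjusted p under 0.05. The summed endothelial signal, of interest since Epas1 is strongly expressed in endothelium, spanned 9.90 to 9.95 in MTT and 9.90 to 10.05 in MPC samples on a log2 scale.

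The promoters of Egln1, Egln3, Hif1an and Arnt2 are shown because Egln3, Hif1an and Arnt2 are the members that differed between the lines and Egln1 is the other hydroxylase that HIF is known to induce. Each window holds 250 bases before and 50 after a RefSeq start site (build GRCm38.p6), 5′ to 3′ on the gene's strand. Capitals mark ACGTG or GCGTG, the core of the hypoxia response element, searched on both strands.
Egln1, chr8:124949205-124949504, minus strand: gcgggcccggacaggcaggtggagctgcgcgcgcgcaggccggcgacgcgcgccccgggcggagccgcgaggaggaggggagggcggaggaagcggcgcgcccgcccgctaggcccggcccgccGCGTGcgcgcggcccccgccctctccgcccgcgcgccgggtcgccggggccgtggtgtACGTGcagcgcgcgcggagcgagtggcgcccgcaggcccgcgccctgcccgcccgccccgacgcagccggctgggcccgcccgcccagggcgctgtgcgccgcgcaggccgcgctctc
Egln3, chr12:54203825-54204124, minus strand: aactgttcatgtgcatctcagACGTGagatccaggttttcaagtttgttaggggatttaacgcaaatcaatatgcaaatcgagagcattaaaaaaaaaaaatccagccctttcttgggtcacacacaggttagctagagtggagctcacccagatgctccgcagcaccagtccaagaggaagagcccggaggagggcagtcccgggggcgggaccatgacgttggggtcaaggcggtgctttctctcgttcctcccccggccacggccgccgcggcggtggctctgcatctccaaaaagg
Hif1an, chr19:44562604-44562903, plus strand: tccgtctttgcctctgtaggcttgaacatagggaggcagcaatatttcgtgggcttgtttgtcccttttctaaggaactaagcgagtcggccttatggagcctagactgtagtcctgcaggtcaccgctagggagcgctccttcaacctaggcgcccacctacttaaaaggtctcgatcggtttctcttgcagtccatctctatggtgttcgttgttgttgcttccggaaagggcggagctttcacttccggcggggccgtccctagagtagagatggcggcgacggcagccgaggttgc
Arnt2, chr7:84409989-84410288, minus strand: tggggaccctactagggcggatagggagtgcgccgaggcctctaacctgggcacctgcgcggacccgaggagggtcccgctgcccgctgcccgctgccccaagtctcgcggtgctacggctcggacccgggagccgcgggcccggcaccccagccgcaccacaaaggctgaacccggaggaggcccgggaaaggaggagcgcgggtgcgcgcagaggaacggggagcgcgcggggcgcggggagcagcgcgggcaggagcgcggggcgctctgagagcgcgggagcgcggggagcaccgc
The Egln1 window holds ACGTG 68 bases and GCGTG 126 bases before the start, and that of Egln3 holds a single ACGTG, 229 bases before it. The windows of Hif1an and Arnt2 hold neither, and the same is true of Vhl. RefSeq windows were matched for 9 of the 10 members, with a pair of windows for Egln2, and Epas1 is the other member. Of these 10 windows 7 hold a match, against 43.8% of all 32851 promoter windows, and 4 hold ACGTG, against 19.6%. Of the ACGTG matches, 1 place each in Egln2 and Hif1a lies in CACGTG, where it reads on both strands and is also an E-box. A match describes letters and does not show a site in use.

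Of the 10 members, 2 were lower and 1 was higher in MTT than in MPC cells and 7 did not pass (limma, Benjamini-Hochberg adjusted p under 0.05 over all genes). Over all 19937 genes 3.94% were called lower, 3.93% higher and 7.87% either way. The 3 members called were Egln3 and Hif1an, which were lower, and Arnt2, which was higher. By sign alone 7 members were lower and 3 higher in MTT cells, and the median log2 difference was -0.056 against -0.0081 over all genes. The median absolute difference was 0.082 for the members and 0.050 for all genes. On 6 of the 10 the arrays of the lines did not overlap, which was the case for 27.2% of all genes. In such bulk RNA, fewer cells that express a gene and less RNA in each cell cannot be told apart. At an unadjusted p under 0.05 there were 5 members, and 20.5% of all genes.

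**Figure D1:**
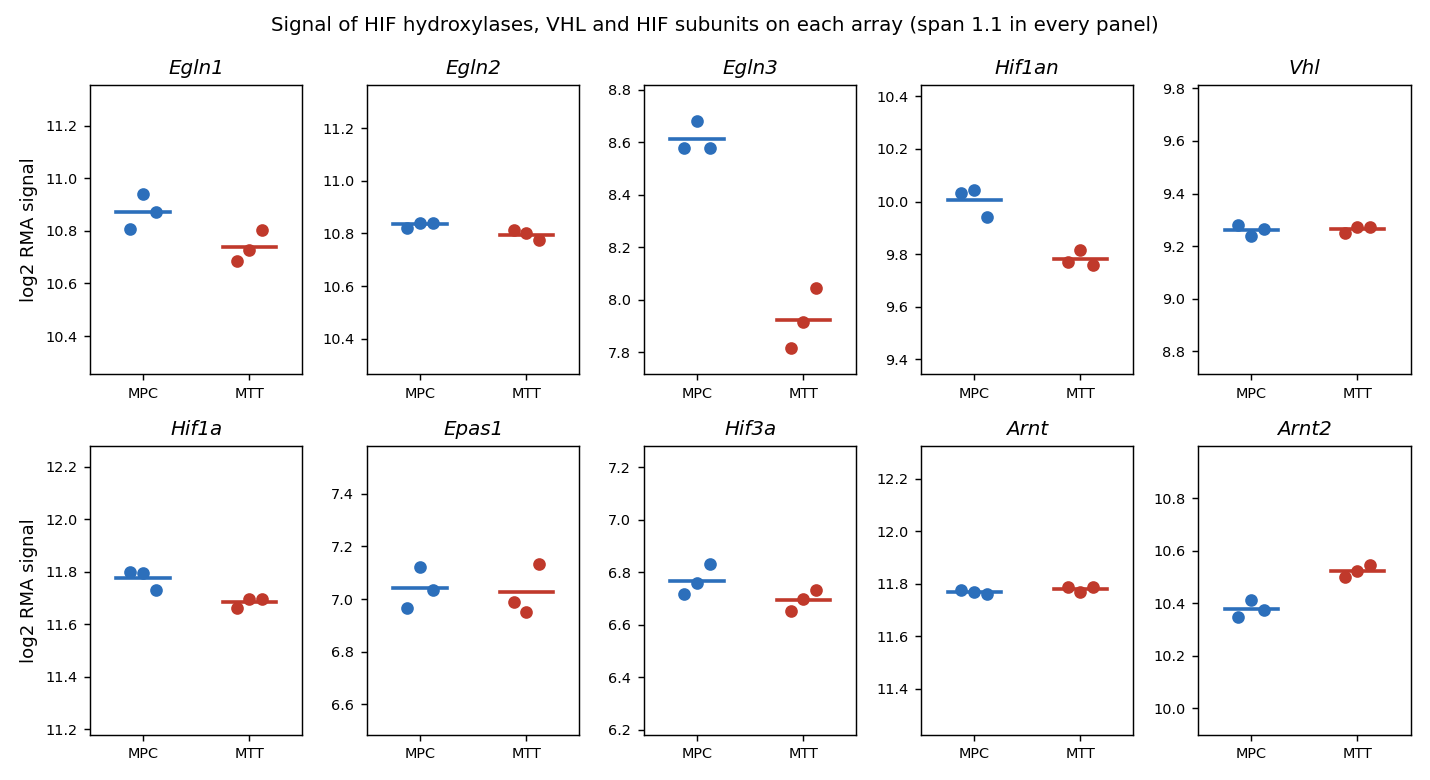
log2 RMA signal (vertical axes) of the 10 members on the 3 MPC arrays (blue) and the 3 MTT arrays (red). Each point is 1 array, each bar the mean of 3, and every panel spans the same range of 1.1, so distances but not heights compare between panels. The MTT points of Egln3 sit at 7.82 to 8.04, below the MPC points at 8.58 to 8.68.

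Egln3, the prolyl hydroxylase also known as PHD3, which responds most to HIF and is required for the death of sympathetic precursors deprived of nerve growth factor, had the largest difference of the members. Its log2 signal was 7.82, 7.91 and 8.04 in MTT replicates 1, 2 and 3 and 8.58, 8.68 and 8.58 in MPC replicates 1, 2 and 3. Every MTT array lay well below every MPC array. The difference was -0.69 (standard error 0.06, 95% interval -0.82 to -0.55, limma adjusted p = 0.000372), so the MPC signal was 1.61-fold that of MTT cells. Of all genes, 0.492% differed by more. With any 1 of the 6 arrays removed the call held (limma adjusted p up to 0.00316).

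Hif1an, or FIH, hydroxylates an asparagine of the alpha subunit and so blocks its contact with the coactivators p300 and CBP. It read 9.77, 9.81 and 9.76 on the MTT arrays and 10.03, 10.04 and 9.94 on the MPC arrays, without overlap. The difference of -0.23 (standard error 0.04, 95% interval -0.32 to -0.13, limma adjusted p = 0.0117) is a 1.17-fold higher signal in MPC cells. That call ended without MTT replicate 1 (adjusted p = 0.0513), with ordinary variances (adjusted p = 0.0649) and when all probe sets were tested (adjusted p = 0.0521). Hif1an lies on chromosome 19, where 111 of 678 genes were lower and 7 higher in MTT cells, and the part of that shift in the call was not tested.

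Egln1, or PHD2, is the hydroxylase that sets HIF alpha levels in most cells at normal oxygen. Its MTT signals were 10.69, 10.73 and 10.80 and its MPC signals 10.81, 10.94 and 10.87. MTT replicate 3 and MPC replicate 1 almost met, and the arrays did not overlap. The difference was -0.13 (95% interval -0.24 to -0.03, limma adjusted p = 0.15). Egln1 did pass when limma modelled a mean-variance trend (adjusted p = 0.0409) or tested just the genes brighter than the median (adjusted p = 0.0488). Egln2, or PHD1, which is induced by estrogen rather than by hypoxia in human breast cancer cells, read 10.81, 10.80 and 10.77 on the MTT arrays. On the MPC arrays it read 10.82, 10.84 and 10.84. That is a difference of -0.038, with a 95% interval of -0.11 to 0.03 that allows a fold of 0.926 to 1.02 for MTT over MPC cells. Within an array, Egln3 minus Egln1 averaged -2.81 ± 0.06 (SD, n = 3) on the MTT and -2.26 ± 0.03 (SD, n = 3) on the MPC arrays. The difference between the lines was -0.55, with every MTT array below every MPC array. The exact two-sided permutation test gave p = 0.1, the smallest that 3 against 3 arrays allow, and 0.15 when adjusted over the 3 ratios computed.

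Vhl, the receptor subunit that recognises hydroxylated HIF alpha, did not separate the lines. It read 9.25, 9.27 and 9.27 on the MTT arrays and 9.28, 9.24 and 9.26 on the MPC arrays, a difference of 0.0040 (95% interval -0.07 to 0.08, limma adjusted p = 0.967). This interval leaves room for a fold of 0.954 to 1.05. The array reads the amount of RNA and not mutations, so nothing here tells whether the Vhl gene is intact.

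Hif1a, the widely expressed alpha subunit, read 11.66, 11.70 and 11.70 in the MTT samples. In the MPC samples it read 11.80, 11.80 and 11.73, and the lines did not overlap. The difference of -0.091 (95% interval -0.17 to -0.01) did not pass in limma (adjusted p = 0.183) and passed with a mean-variance trend (adjusted p = 0.0414). Epas1, which encodes HIF-2 alpha, the subunit tied most closely to PHEO and to erythropoietin control, read 6.99, 6.95 and 7.13 on the MTT arrays and 6.97, 7.12 and 7.03 on the MPC arrays. The lines were intermixed, with a difference of -0.016 (95% interval -0.15 to 0.12, limma adjusted p = 0.924). Hif3a, of which some variants oppose the other alpha subunits, read 6.65, 6.70 and 6.73 in MTT and 6.72, 6.76 and 6.83 in MPC cells, with overlap and a difference of -0.073 (95% interval -0.17 to 0.02, limma adjusted p = 0.372). Without MPC replicate 3 it was -0.042. The signals of Epas1 and Hif3a lie under the median gene, where array background weighs most and compresses folds, and no detection call was used here, so neither is shown to be above background. The same holds in part for Egln3, whose MTT mean of 7.92 is under and whose MPC mean of 8.61 is over the median of 8.28. Epas1 minus Hif1a within an array averaged -4.66 ± 0.09 (SD, n = 3) on the MTT and -4.73 ± 0.08 (SD, n = 3) on the MPC arrays, which overlap (exact two-sided permutation p = 0.5, also after adjustment).

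Arnt, the beta subunit shared by HIF and the aryl hydrocarbon receptor, read 11.79, 11.77 and 11.79 on the MTT arrays. On the MPC arrays it read 11.78, 11.77 and 11.76, a difference of 0.012 (95% interval -0.06 to 0.08, limma adjusted p = 0.882). Arnt2, its paralogue that is most abundant in neural tissue, read 10.50, 10.52 and 10.55 in MTT and 10.35, 10.41 and 10.37 in MPC cells. All MTT arrays were above all MPC arrays. The difference was 0.15 (standard error 0.03, 95% interval 0.07 to 0.22, limma adjusted p = 0.0391), a 1.11-fold higher signal in MTT cells. With any 1 of the 6 arrays removed it no longer passed (limma adjusted p between 0.0678 and 0.125). Arnt2 minus Arnt within an array was -1.26 ± 0.03 (SD, n = 3) on the MTT and -1.39 ± 0.04 (SD, n = 3) on the MPC arrays without overlap (exact two-sided permutation p = 0.1, adjusted 0.15).

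**Figure D2:**
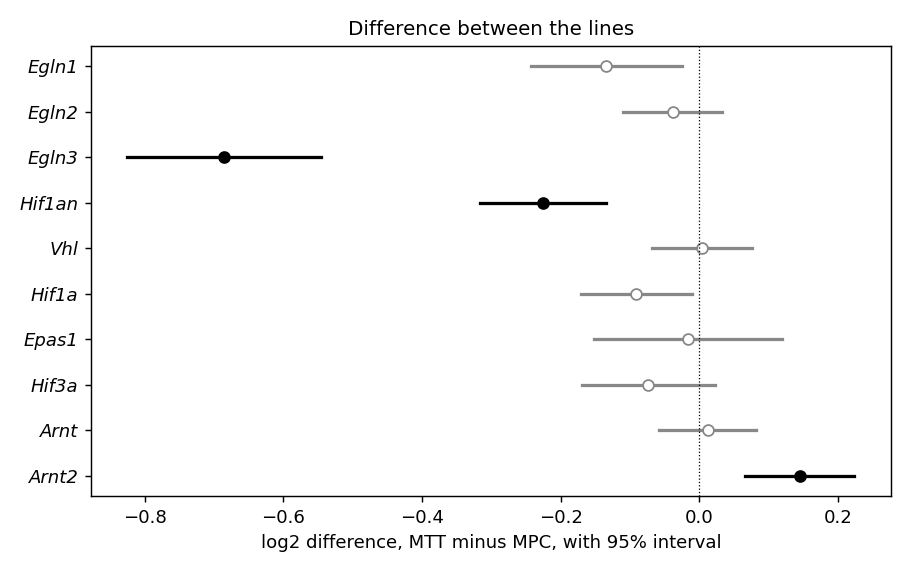
log2 difference between the lines (horizontal axis, MTT minus MPC) of each member (vertical axis), with 95% intervals from limma. Filled black points passed an adjusted p under 0.05 and open grey points did not. Egln3 lies at -0.69, Hif1an at -0.23 and Arnt2 at 0.15, and the other intervals lie between -0.24 and 0.12.

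The position of a member on its chromosome was not used to choose it. Among the 20 tested genes that surround Egln3 on chromosome 12, the median log2 difference was -0.048 and the range -0.21 to 0.09. Egln3 therefore lay outside its neighbourhood, of which 1 gene was lower and 0 were higher. The 20 genes around Hif1an had a median of -0.10 and a range of -0.32 to 0.10, with 4 lower, so Hif1an lay within it. Arnt2 lay above the median of its neighbours, -0.021, and within their range of -0.90 (Tmc3) to 0.23 (Mex3b), of which 2 were lower and 1 was higher. For Hif1a, also on chromosome 12, the median of the neighbours was -0.020. The other 6 members had neighbour medians of -0.032 to 0.020 and lay within their neighbours' ranges.

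**Figure D3:**
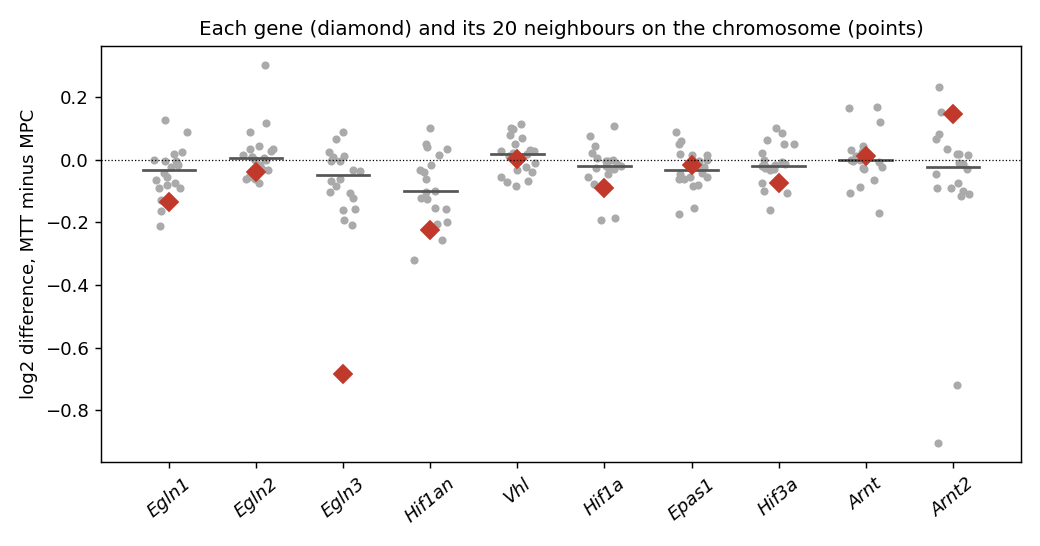
log2 difference between the lines (vertical axis, MTT minus MPC) of each member (red diamond) and of the 20 tested genes around it on the chromosome (grey points, bar at their median). The neighbours of Egln3 span -0.21 to 0.09 while Egln3 is at -0.69.

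For each member that was called, the genes of most similar pattern were sought by the root mean square distance between the 6 array values, each gene centred on its own mean. For Egln3 these were Itga6, a laminin-binding integrin (distance 0.056), Fam20c, a kinase of secreted proteins (0.065), and Nptx1, a neuronal pentraxin (0.067), with differences of -0.70, -0.67 and -0.69. Nearest to Hif1an were the urea cycle gene Asl (0.015), Abcc9 and Hdac11 (each 0.020). Nearest to Arnt2 were Mtrex, a helicase of nuclear RNA decay (0.0094), Coq4 and Utp15 (each 0.014).

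Genes that act with or on the members were read from lists. Of 9 measured partners of VHL in its ligase and in the NEDD8 cycle that activates cullins, 0 were called by limma and 3 had an unadjusted p under 0.05, all lower: Eloc, the elongin C that bridges VHL to the cullin, differed by -0.093, Nae1 by -0.11 and Uba3 by -0.095. The list's median difference was -0.061. Over all genes, 7.87% were called either way and 20.5% had an unadjusted p under 0.05, shares that also apply to the next list. Of 21 measured regulators of HIF alpha stability, 1 was lower, 0 were higher and 20 did not pass (2 lower and 2 higher at an unadjusted p under 0.05), at a median of -0.00081. The one called was Usp20, a deubiquitinase that VHL targets, which read 9.72, 9.68 and 9.62 on the MTT and 9.86, 9.90 and 9.81 on the MPC arrays (limma adjusted p = 0.0276). Siah2, a ligase for Egln3, differed by 0.10 (limma adjusted p = 0.211) and Sart1, on chromosome 19, by -0.18 (limma adjusted p = 0.0505).

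Among 13 measured coactivators and competitors of HIF, 1 was lower and 1 was higher, at a median of -0.0045. Over all genes 7.87% were called either way. Both calls fell on genes of CITED proteins, which bind the p300 and CBP domain that HIF alpha uses. Cited4, also on the list, differed by 0.014 and did not pass (limma adjusted p = 0.907). Cited1 read 9.69, 9.71 and 9.64 on the MTT and 10.17, 10.19 and 10.17 on the MPC arrays, far apart, with a difference of -0.50 (limma adjusted p = 8.81e-05). Cited2, itself a HIF target and the better known competitor of HIF, went the other way, from 11.44, 11.33 and 11.40 on the MPC arrays to 11.61, 11.59 and 11.55 on the MTT arrays (difference 0.19, limma adjusted p = 0.0225). Ep300 and Crebbp, which encode p300 and CBP, differed by 0.014 and 0.028 and did not pass. Of 10 measured further members of the bHLH-PAS family, to which all HIF subunits belong, 0 were called and 0 had an unadjusted p under 0.05, and their differences ran from -0.040 to 0.049.

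Listed genes that HIF commonly induces were lower in MTT cells where they differed. The list leaves out Cited2, a HIF target read above among the competitors, which was higher (difference 0.19, limma adjusted p = 0.0225). Of 31 measured, 11 were lower, 0 were higher and 20 did not pass in limma (16 lower and 0 higher at an unadjusted p under 0.05), which is 35.5% lower against 3.94% of all genes. The median difference was -0.11 against -0.0081 over all genes, and 26 of the 31 differences were negative. By the RefSeq positions of the genes, the 11 lie on 8 chromosomes. The positions of the probe sets themselves and the neighbours of the target genes were not examined. The target genes were brighter than most, with 26 of 31 above the median signal against 9968 of all 19937 genes. When only genes above it were tested, 14 of 26 target genes were lower, against 1195 of 9968 genes. Ak4, a mitochondrial adenylate kinase, read 8.12, 8.16 and 8.23 on the MTT and 9.26, 9.45 and 9.35 on the MPC arrays. The lines lay more than 1 unit apart on the probe set kept (difference -1.18, limma adjusted p = 1.52e-05). With the probe sets of Ak4 averaged the difference was -0.67, so they did not read alike. Which of them reads Ak4 best was not tested. Pdk1, the kinase that keeps pyruvate out of mitochondria, read 7.89, 8.01 and 8.26 on the MTT and 8.78, 9.20 and 8.96 on the MPC arrays, a difference of -0.92 (limma adjusted p = 0.00298) that ended with ordinary variances (adjusted p = 0.0769). The glycolytic Aldoc and Hk2 differed by -0.43 and -0.34, the mitophagy gene Bnip3 by -0.43 (lost with ordinary variances, adjusted p = 0.0875) and the glucose transporter Slc2a1 by -0.21. Vegfa, the best known vascular target, differed by -0.068 (limma adjusted p = 0.311) and Ldha by -0.081 (limma adjusted p = 0.206), and neither passed. Adm differed by 0.0058 and Car9 by 0.027. The call of Ankrd37 held in 6 of 14 alternatives and that of Car12 in 6 of 13. These counts say how many listed genes passed, and no test of the list was made. The list was drawn up with results of these data known.

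**Figure D4:**
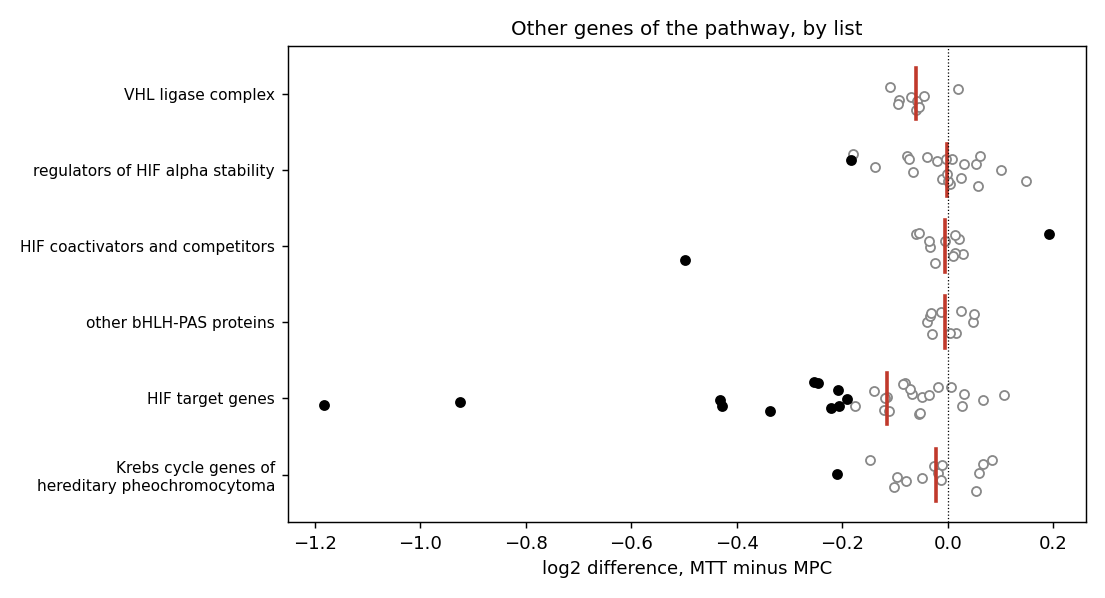
log2 difference between the lines (horizontal axis, MTT minus MPC) of genes in 6 lists of the pathway (vertical axis). Each point is 1 gene, filled where it passed an adjusted p under 0.05 and open where it did not, and the red bar is the list's median. The 11 filled points of the HIF target genes lie between -1.18 and -0.19.

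Succinate and fumarate inhibit the hydroxylases and 2-oxoglutarate is their substrate. Of 14 measured Krebs cycle genes linked to hereditary PHEO, 1 was lower, 0 were higher and 13 did not pass (3 lower and 1 higher at an unadjusted p under 0.05), at a median of -0.022. The count called is close to the 7.87% of all genes called, and 20.5% of all genes had an unadjusted p under 0.05. The one called was Sdhaf2, an assembly factor of succinate dehydrogenase on chromosome 19, at 9.95, 9.96 and 9.91 on the MTT and 10.14, 10.17 and 10.13 on the MPC arrays (limma adjusted p = 0.00698). Sdhb differed by 0.060 (95% interval -0.05 to 0.17). Of 8 other PHEO genes measured, 0 were called by limma and 2 had an unadjusted p under 0.05. These were the receptor Ret, with a difference of -0.12, and Fgfr1, with one of -0.11.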

How the data were processed

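The authors deposited log2 signals of 34760 probe sets on 6 arrays. By the methods and the processing notes these come from RMA background correction, normalization and summarisation in the vendor's and Partek's software, with versions and genome build not given in the sources used here. The methods also describe RMA run in R on the raw files. RMA forces equal distributions on the arrays, so a shift of all genes would not be seen. No further normalization was applied. Of the probe sets 21640 carry 1 gene symbol in the platform annotation, and the brightest per gene was kept, giving 19937 genes. MTT was compared with MPC in limma 3.58.1 (R 4.3.3, lmFit and eBayes, two-sided, Benjamini-Hochberg over all genes, threshold 0.05). The procedure was tested on simulated data with known differences. It recovered 100 of 100 differences of 1 log2 unit and 54 of 100 of 0.25, with 5 false calls among 159 calls. All other genes were left unchanged and the noise was independent between genes. The data gave 1569 calls, so the recovery and false call shares need not hold for them. Smaller differences were not simulated. The array number of 3 a line limits the precision, and arrays give no read depth.

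The members and lists were chosen with earlier results of these data known. Named by rule were all members, up to 4 called genes of smallest p per list (otherwise 1 or 2 of smallest p), and the 3 nearest patterns of each called member. Uba3, Siah2, Sart1, Ep300, Crebbp, Cited4, Sdhb, the neighbour genes and, among HIF targets, genes other than Ak4, Aldoc, Hk2 and Pdk1 were named after their values were seen. The alternatives were ordinary variances, close to the methods' analysis of variance, a block for the replicate number, a mean-variance trend, averaged probe sets, genes above the median signal, all probe sets, median centring, cyclic loess and leaving out each array. For the count of HIF target genes they were chosen after seeing the data.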

Additional observations from a re-analysis of the deposited data

How the results depend on the processing

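Of the members called, Egln3 kept its call under all 13 alternatives that include it, while Hif1an and Arnt2 did not. The number of members called higher was 0 with ordinary variances, with the replicate block and over all probe sets, and 0 to 0 when each array was left out. The number called lower was 1 with ordinary variances, 4 with a mean-variance trend, 1 over all probe sets and 1 to 2 without single arrays. Arnt2 had an adjusted p of 0.0565 with the replicate block, 0.0625 with ordinary variances and 0.106 over all probe sets. Over all genes, 428 were higher and 396 lower with ordinary variances, 1302 lower with a trend, 1195 lower among genes above the median signal, and 506 higher and 436 lower over all probe sets. Without single arrays 462 to 617 were higher and 429 to 659 lower, the fewest of both without MTT replicate 2. HIF target genes called lower numbered 7 with ordinary variances and 8 to 11 without single arrays. Egln3 minus Egln1, Arnt2 minus Arnt and Epas1 minus Hif1a kept their direction under the 9 alternatives run for them, but Epas1 minus Hif1a, at 0.074 with all arrays, was 0.026 without MTT replicate 3 or MPC replicate 1 and 0.12 without MTT replicate 2. Among the member differences the sign turned for Epas1, which ran from -0.070 to 0.025 over the fits without single arrays (0.0016 without MTT replicate 1, 0.021 without MTT replicate 2 and 0.025 without MPC replicate 2), and for Vhl, which ran from -0.0066 without MPC replicate 2 to 0.013. Without single arrays Hif3a ran from -0.099 to -0.042 and Arnt from 0.0082 to 0.019. The cause of these changes was not tested. Deviations of arrays with the same replicate number correlated at 0.116, 0.0735 and 0.249, and arrays with different numbers were not compared in this way. Replicate 3 had the highest signal of its line for 37.9% of all genes in MTT and 37.7% in MPC cells. Whether a replicate number marks a shared batch or a pair was not tested. The main fit used no block, and the replicate block gave 755 genes higher and 746 lower.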

Other observations

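Within the MPC line the HIF target genes were not evenly spread over the arrays, a pattern noticed after the values were seen. MPC replicate 2 had the highest of the 3 signals for 21 of the 31 target genes (67.7%), against 30.5% of all genes, and for 6 of the 10 members. MPC replicate 1 was the highest for 4 target genes. The median deviation of the target genes from their MPC mean was -0.037, 0.030 and -0.0047 on the log2 scale in MPC replicates 1, 2 and 3. Pdk1 deviated by -0.20, 0.22 and -0.014 and Ak4 by -0.091, 0.10 and -0.0087 in the same order, and Egln3 by -0.034, 0.068 and -0.034. In the MTT line, replicate 3 was the highest for 14 of 31 target genes (45.2%), near the 37.9% of all genes, and for 7 of the 10 members. The median deviation of the target genes in MTT replicates 1, 2 and 3 was -0.0037, -0.0013 and 0.0034. For all genes it was -0.0016, -0.0014 and 0.0029. In the same order Egln3 deviated by -0.11, -0.011 and 0.12 and Pdk1 by -0.17, -0.042 and 0.21. Other target genes went the other way, such as Ankrd37 at 0.0685, 0.0216 and -0.0901. Without MPC replicate 2, 9 target genes were called lower, and Egln3 stayed lower in MTT cells. Genes are not independent replicates, and no test was made of these shares.

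Among the 13 measured chromaffin markers, 3 were higher and 1 was lower in MTT cells, where 7.87% of all genes were called either way. Scg2, which encodes a secretogranin, differed by 0.55 (limma adjusted p = 0.00026) and the vesicular monoamine transporter gene Slc18a1 by 0.27 (limma adjusted p = 0.0042). The transcription factor gene Gata3 differed by 0.19 (limma adjusted p = 0.0445) and the chromogranin gene Chgb by -0.15 (limma adjusted p = 0.0233).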
